A study of Mus musculus with 8 samples.

Results

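The 46 genes described here encode proteins that license origins of DNA replication and copy DNA at the fork. They were taken as the spots of the arrays that were not controls and whose gene name was one of the 46 symbols, namely the origin recognition genes Orc1 to Orc6, the loading factors and their inhibitor, the MCM helicase and its activators, the DNA polymerases alpha, delta and epsilon with primase, the sliding clamp and its loader, the single-strand binding proteins, and 2 genes of Okazaki fragment processing. All 46 were represented, by 94 of the 56605 probes of the array, and they are 46 of its 37074 gene names and of its 19365 names of protein-coding genes in RefSeq. The rule did not use any measured value.

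Pvt1, a long noncoding RNA, had been silenced in C2C12, a mouse myoblast line that keeps dividing in growth medium and can form myotubes. Both groups were proliferating C2C12 at passage 10 transfected by Lipofectamine 2000 with 35 pmol of GapmeRs, and RNA was taken 48 h later. The silenced group (4 cultures) received the LNA GapmeRs Pvt1_1 and Pvt1_3, short modified DNA strands that pair with a transcript and lead to its cleavage by RNase H, and the control group (4 cultures) received negative control GapmeRs. All values come from 1 cell line, so they describe that line only, and in RNA from whole cultures fewer cells copying DNA and less RNA per cell cannot be told apart. The sequences of the 2 silencing GapmeRs are shown because they define the silenced group.
Pvt1_1: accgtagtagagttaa
Pvt1_3: agtcaacgcttcacat

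In the G1 phase of the cell cycle the origin recognition complex, with Cdc6 and Cdt1, loads the Mcm2 to Mcm7 helicase onto DNA, which is called licensing, and geminin blocks Cdt1 once licensing is over. In S phase the kinase Cdc7 with its subunit Dbf4 phosphorylates the loaded helicase, and Cdc45 and the GINS complex join it to form the active fork helicase. DNA polymerase alpha with primase then lays down primers, polymerases epsilon and delta extend the leading and lagging strands on the clamp Pcna, and Fen1 and Lig1 finish the Okazaki fragments. Many of these genes are transcribed at the entry into S phase under E2F factors.

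Promoter sequences are given for 3 licensing genes on which the results below turn, each with the 250 bases before the transcription start as RefSeq gives it for build GRCm38.p6, on the strand of the gene. The capitals mark every base covered by the E2F words TTTCCCGC, TTTGGCGC, TTTCGCGC or TTTGCCGC on either strand, and words that overlap were counted one by one. Mcm5 is the 1 called member whose promoter held such a word, with 2 that overlap. The Mcm6 promoter held 3, of which 2 overlap, and that of Orc1 held 1, close to its start. The Mcm5 region is chr8:75109259-75109508 on the + strand, that of Mcm6 is chr1:128359706-128359955 on the - strand, and that of Orc1 is chr4:108579204-108579453 on the + strand.
Mcm5: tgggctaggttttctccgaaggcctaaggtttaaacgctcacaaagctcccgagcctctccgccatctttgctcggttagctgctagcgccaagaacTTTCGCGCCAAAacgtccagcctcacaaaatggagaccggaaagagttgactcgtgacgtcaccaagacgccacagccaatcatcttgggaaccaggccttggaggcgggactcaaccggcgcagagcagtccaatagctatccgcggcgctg
Mcm6: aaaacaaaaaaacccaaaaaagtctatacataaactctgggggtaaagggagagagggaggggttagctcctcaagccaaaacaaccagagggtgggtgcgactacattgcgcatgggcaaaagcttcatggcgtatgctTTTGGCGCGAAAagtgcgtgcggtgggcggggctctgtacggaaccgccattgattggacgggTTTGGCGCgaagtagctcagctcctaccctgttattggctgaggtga
Orc1: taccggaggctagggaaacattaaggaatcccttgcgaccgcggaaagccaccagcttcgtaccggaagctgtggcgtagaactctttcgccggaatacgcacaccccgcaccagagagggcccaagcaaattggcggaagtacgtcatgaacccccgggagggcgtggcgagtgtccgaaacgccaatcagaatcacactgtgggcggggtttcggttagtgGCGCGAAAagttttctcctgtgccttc

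These words were found in the promoters of 10 of the 38 members with an entry in the promoter table, or 26.3%, and in those of 2.16% of all 27025 genes with an entry and 3.53% of the 10315 tested protein-coding genes with one. The 10 were Cdc6, Gins3, Mcm5, Mcm6, Mcm7, Orc1, Orc3, Pola1, Pole4 and Rfc3. The CCAAT box (CCAAT, either strand) was found in 22 of the 38 promoters (57.9%), in 37.5% of those of all genes and in 40.3% of those of tested protein-coding genes. The word TTTGAA of the cell-cycle homology region was found in 6 of the 38 (15.8%), in 18.3% of all and in 13.3% of tested protein-coding genes. A word in a promoter is a description of its letters, and was not tested as a binding site. Pole, Gmnn, Gins1, Prim2, Mcm4, Rfc2, Gins4 and Gins2 were not matched.

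Each culture had its own 1-colour array, and 1 slide carried all 8. Between 51.6% (silenced replicate 4) and 62.5% of the spots that were not controls had a signal positive and significant against background. By its brightest probe, Pvt1 read 9.65, 9.79, 10.31 and 9.70 in the control arrays and 7.09, 6.69, 7.85 and 6.39 in the silenced ones as log2 of the normalized signal, a difference of -2.86 (SE 0.32, limma adjusted p = 0.000682), or 13.8% of control. The groups did not overlap, and an exact two-sided permutation test gave 0.0286, the smallest p that 4 against 4 arrays allow. Of 6 myoblast markers 5 were well above background on every array and Myf5 on none. At an adjusted p under 0.05 (limma) 3 fell, namely Myod1 (-1.95), Des (-1.35) and Cdh15 (-0.86), beside 13.7% of protein-coding genes called lower. Pax7 (0.02), Vim (-0.17) and Myf5 were not called. Of 5 markers of differentiated muscle tested, Acta1 fell (-1.88), and Myog, Myh3, Tnnt3 and Myh8 were not called. The summed linear level of 18 liver markers, which are not muscle genes, was 1204 to 2092 in control and 6334 to 7731 in silenced arrays, with 2 to 3 of them well above background in control and 8 to 13 in silenced arrays. Alb, Mup1 and Serpina1a were well above background on all silenced and on no control array. Hpx went the other way, well above background on 2 control arrays and on no silenced one. Apoa2 (-0.15) was not called, and 4 of the 18 were well above background on no array. The part of these liver transcripts in the results below was not tested.

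**Figure D1:**
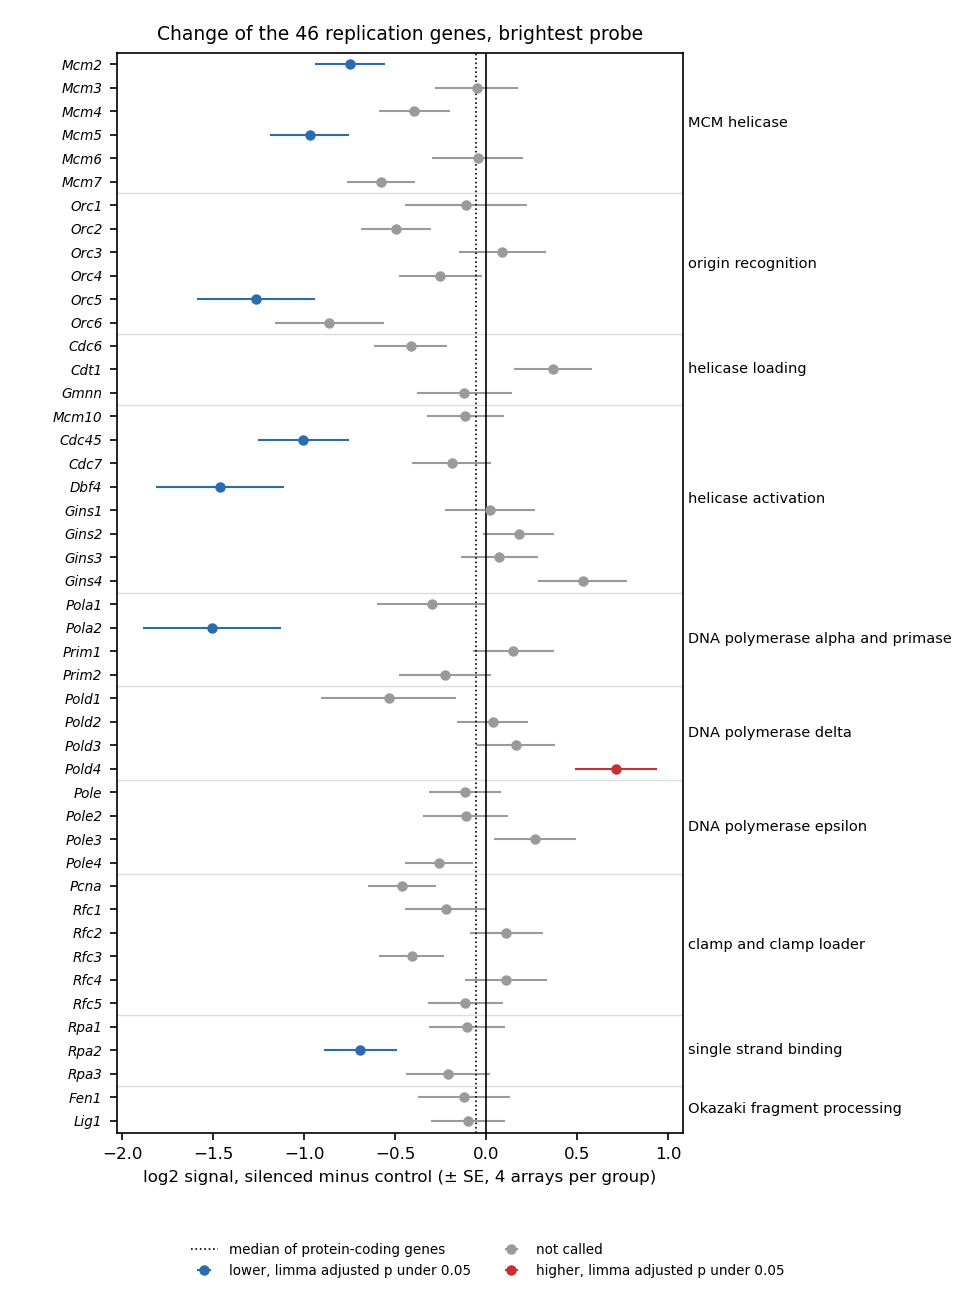
Log2 signal of each of the 46 replication genes in silenced minus control cultures (x axis, point), with its standard error (bar), grouped by role. The 7 blue genes lie to the left of 0 between -1.51 and -0.69, Pold4 (red) lies at 0.71, and the dotted line marks the median of protein-coding genes at -0.06.

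Few replication genes passed the test, and of those that did most were lower in the silenced cultures. Each gene was represented by its brightest tested probe, and on that basis all 46 members were tested and all 46 were well above background on all 8 arrays. The log2 difference was negative for 33 of the 46, though for only 21 to 27 under the other scalings described next, with a median of -0.12, beside -0.06 over the 12858 protein-coding genes tested and -0.19 over all 28649 probes tested. At an adjusted p under 0.05 (limma, Benjamini-Hochberg over all probes tested), 7 members fell (Mcm2, Mcm5, Orc5, Cdc45, Dbf4, Pola2 and Rpa2) and 1 rose (Pold4). The 7 are 15.2% of the members, beside 13.7% of all protein-coding genes called lower by their brightest probe, and the 1 is 2.17%, beside 6.53% called higher. The members' share lower was thus close to that of all genes. The arrays of the groups did not overlap, with silenced lower, for 11 members or 23.9%, beside 18.6% of protein-coding genes, and, with silenced higher, for 1 member, beside 7.66%. The 5 members without overlap that were not called lower were Mcm7, Orc2, Orc6, Pcna and Rfc3. Over all probes, 18.4% were called lower and 4.79% higher.

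The split between lower and higher calls depended on the scaling. With cyclic loess in place of quantile normalization, the median of all protein-coding genes moved from -0.06 to 0.15, and 5 members were called lower and 4 higher, beside 14.2% and 24.5% of protein-coding genes. Orc5 and Pola2 (both with adjusted p = 0.067) lost their calls there. The members' own median moved from -0.12 to 0.04, below that of all protein-coding genes. Without the mask on dim spots 4 were called lower and 7 higher (15.2% of members), beside 7.84% and 15.5% of protein-coding genes. In the authors' own value table these numbers were 6 and 7, beside 8.40% and 15.6%. Of the 7 genes called lower above, Mcm5 and Dbf4 were called in both of these, and Mcm2, Orc5, Cdc45, Pola2 and Rpa2 in neither. In the value table their adjusted p was 0.0585 for Mcm2, 0.128 for Orc5, 0.0714 for Cdc45, 0.12 for Pola2 and 0.0662 for Rpa2, and without the mask it was 0.0834, 0.139, 0.0857, 0.131 and 0.0882. Orc6 and Pcna were called lower in both instead, and Mcm4 and Mcm7 in the value table. The members' median was then 0.05 and 0.03, beside 0.02 over protein-coding genes in both. The number of members with a negative difference was 22 with cyclic loess, 21 without the mask, 21 in the value table and 27 when arrays were scaled to their 75th percentile. The genes called higher with cyclic loess, without the mask and in the value table alike were Pold4, Cdt1, Gins4 and Pole3.

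Within the MCM helicase, the ring of Mcm2 to Mcm7 that unwinds DNA ahead of the fork, 2 of 6 members passed the test, both lower. All 6 differences were negative, but those of Mcm3 and Mcm6 turned positive with cyclic loess, 75th percentile scaling, no mask or the value table. Mcm5 read 13.71, 14.10, 14.30 and 13.99 in control and 13.10, 13.36, 12.73 and 13.03 in silenced arrays. Every silenced array lay below every control array, with a difference of -0.97 on the log2 scale (SE 0.22, adjusted p = 0.0117), or 51.0% of control. Mcm2 read 12.88, 12.97, 12.98 and 12.87 in control and 12.22, 12.42, 11.85 and 12.22 in silenced arrays. Its 4 control arrays lay close together and all above the silenced ones, with a difference of -0.75 (SE 0.19, adjusted p = 0.0209), or 59.5% of control. Mcm7 (-0.58, adjusted p = 0.0518) missed the threshold although its groups did not overlap. The other 3 gave differences of -0.40 for Mcm4, -0.05 for Mcm3 and -0.05 for Mcm6, with overlapping groups. The Mcm5 probe lies on chromosome 8 at 77651350 to 77651410 (+ strand) and the Mcm2 probe on chromosome 6 at 88833619 to 88833678 (- strand), in the mm9 coordinates of the array files.

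Of the 6 subunits of the origin recognition complex, which marks origins and starts loading, Orc5 alone passed the test, and 5 had negative differences (4 with cyclic loess, no mask or the value table, where that of Orc1 was positive). Orc5, an ATP-binding subunit, read 9.12, 9.28, 9.10 and 9.49 in control and 8.27, 8.78, 7.19 and 7.69 in silenced arrays. All silenced arrays were lower, most of all replicate 3, and the difference was -1.27 (SE 0.32, adjusted p = 0.0209), or 41.5% of control. Its probe maps to the - strand of chromosome 5 between 22005853 and 22022527 in mm9, a stretch longer than the 60-base probe. Orc6 (-0.86, adjusted p = 0.0638) and Orc2 (-0.50, adjusted p = 0.0888) did not overlap between groups and missed the threshold. Orc4 (-0.25), Orc1 (-0.11) and Orc3 (0.09) overlapped.

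None of the 3 loading genes passed the test. Gmnn, which encodes geminin, read 13.02, 13.29, 13.64 and 13.32 in control and 13.30, 13.02, 13.77 and 12.72 in silenced arrays. The groups overlapped widely, and its difference was -0.12 (SE 0.26, adjusted p = 0.783). Cdc6, the ATPase that closes the complex on DNA, differed by -0.42 (adjusted p = 0.168), and Cdt1, the partner that brings in the helicase, by 0.37 (adjusted p = 0.248). Cdt1 was called higher with cyclic loess (0.57, adjusted p = 0.0196), as it was without the mask and in the value table.

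Among the 8 genes that activate the helicase, Dbf4 and Cdc45 passed the test and no GINS gene did. Dbf4, the regulatory subunit that the kinase Cdc7 needs, read 12.08, 12.33, 11.42 and 12.20 in control and 10.75, 11.11, 10.76 and 9.56 in silenced arrays. The groups did not overlap, with control replicate 3 and silenced replicate 4 the lowest of their groups, and the difference was -1.46 (SE 0.35, adjusted p = 0.0158), or 36.3% of control. Cdc7 itself differed by -0.19 (adjusted p = 0.574). Cdc45, which travels with the helicase, read 10.20, 10.56, 10.33 and 10.50 in control and 9.68, 9.86, 8.92 and 9.12 in silenced arrays. Every silenced array was lower, and the difference was -1.01 (SE 0.25, adjusted p = 0.0183), or 49.8% of control. Its probe lies between 18793399 and 18794880 on the - strand of chromosome 16, and that of Dbf4 at 8397489 to 8397548 on the - strand of chromosome 5, both in mm9. The 4 GINS genes, whose products bind Cdc45 and the helicase as 1 complex, gave 0.02 for Gins1, 0.18 for Gins2, 0.07 for Gins3 and 0.53 for Gins4. All 4 GINS groups overlapped. Mcm10, which helps start unwinding, differed by -0.11.

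Of the 4 genes of DNA polymerase alpha and primase, the enzyme that starts each new strand, only Pola2 passed the test. Pola2, its regulatory B subunit, read 9.72, 10.16, 8.68 and 10.14 in control and 8.19, 8.84, 7.57 and 8.05 in silenced arrays. Control replicate 3, at 8.68, lay below silenced replicate 2, so the groups overlapped in that 1 array. The difference was -1.51 (SE 0.38, adjusted p = 0.0191), or 35.1% of control, the lowest of the 46 members, and without control replicate 3 it was -1.84 (adjusted p = 0.00356). The catalytic subunit Pola1 differed by -0.30, the primase subunit Prim2 by -0.23 and Prim1 by 0.15, and all 3 overlapped. The Pola2 probe lies at 5946484 to 5946543 on the - strand of chromosome 19 in mm9.

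Polymerase delta, which copies the lagging strand, held the 1 member that rose. Pold4, its smallest subunit, read 12.95, 13.12, 13.31 and 13.04 in control and 13.87, 13.74, 14.26 and 13.41 in silenced arrays. All silenced arrays were higher, and the difference was 0.71 (SE 0.22, adjusted p = 0.0461), or 164% of control. The catalytic subunit Pold1 differed by -0.54 (-0.15 without silenced replicate 4), and the accessory subunits Pold2 by 0.03 and Pold3 by 0.16, with overlapping groups. The Pold4 probe lies at 4233572 to 4233629 on the + strand of chromosome 19 in mm9.

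Polymerase epsilon, which copies the leading strand, had no called member. Pole3, a histone-fold subunit, read 12.44, 12.70, 12.45 and 12.57 in control and 12.80, 12.82, 13.26 and 12.35 in silenced arrays. Silenced replicate 4 lay below all control arrays and the other 3 above them, and the difference was 0.27 (SE 0.23, adjusted p = 0.435). The catalytic subunit Pole differed by -0.12, Pole2 by -0.11 and Pole4 by -0.26.

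The clamp and its loader had no called member either. Pcna, the ring that holds the polymerases on DNA, read 15.24, 15.33, 15.24 and 15.37 in control and 14.96, 14.90, 14.94 and 14.52 in silenced arrays. All silenced arrays lay below the control arrays, and the difference was -0.46 (SE 0.19, adjusted p = 0.104), or 72.5% of control. Among the subunits of replication factor C, which opens and closes the clamp, Rfc3 (-0.41, adjusted p = 0.131) did not overlap between groups. Rfc1 (-0.22), Rfc5 (-0.12), Rfc2 (0.11) and Rfc4 (0.11) did.

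Rpa2, the middle subunit of the complex that coats single-stranded DNA, passed the test. It read 10.67, 11.03, 10.92 and 10.90 in control and 10.21, 10.53, 10.04 and 9.97 in silenced arrays. The silenced arrays were all lower, with a difference of -0.69 (SE 0.20, adjusted p = 0.0345), or 61.9% of control. The large subunit Rpa1 (-0.11) and the small subunit Rpa3 (-0.21) overlapped between groups. The Rpa2 probe lies at 132333990 to 132334049 on the + strand of chromosome 4 in mm9.

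Fen1, the nuclease that trims Okazaki fragments, and Lig1, the ligase that seals them, were not called. Fen1 read 13.77, 13.61, 14.27 and 13.70 in control and 13.76, 13.66, 14.20 and 13.26 in silenced arrays, with a difference of -0.12 (SE 0.25, adjusted p = 0.773). Lig1 differed by -0.10 (adjusted p = 0.761). The groups of both genes overlapped.

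**Figure D2:**
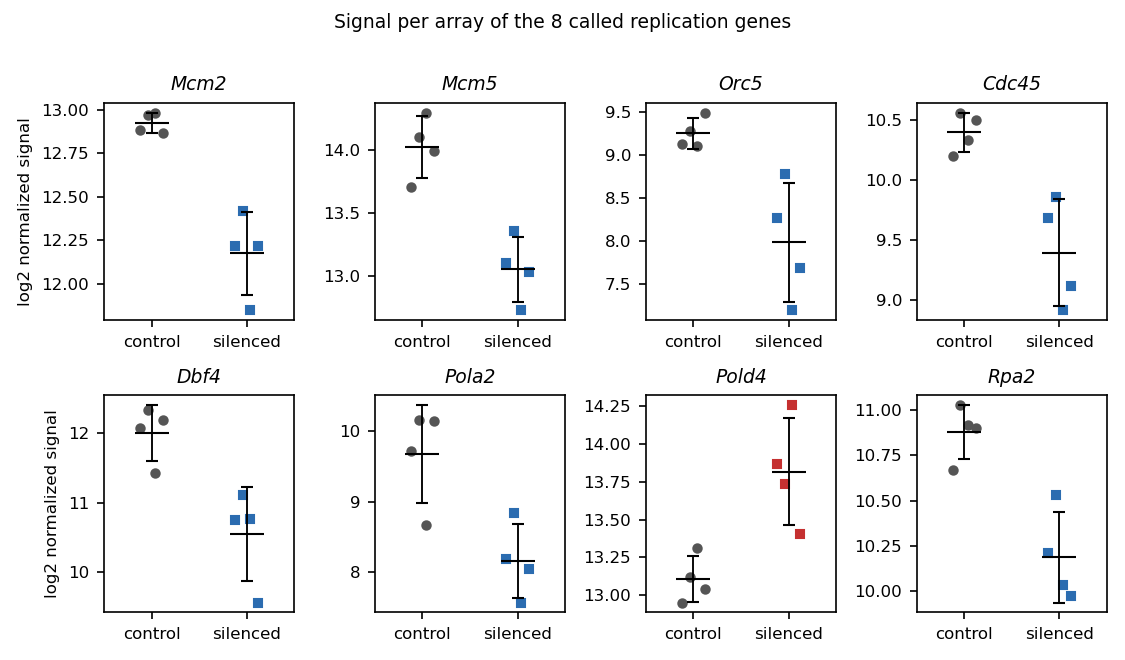
Log2 normalized signal (y axis) of the 8 called replication genes in the 4 control and 4 silenced arrays (points), with the mean and standard deviation of each group (bars). The groups are apart for 7 of the 8 genes, and for Pola2 control replicate 3, at 8.68, lies among the silenced arrays.

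When each array was left out in turn, 1 to 8 members were called lower and 0 to 1 higher, and Mcm5 kept its call throughout (adjusted p from 0.0140 to 0.0458). Without control replicate 2, or without control replicate 4, Mcm5 was the 1 member called lower. Without control replicate 2 the adjusted p was 0.0738 for Mcm2, 0.0589 for Orc5, 0.0641 for Cdc45, 0.0536 for Dbf4, 0.0627 for Pola2, 0.116 for Rpa2 and 0.115 for Pold4. Without control replicate 4 these were 0.0666, 0.0669, 0.0627, 0.0510, 0.0626, 0.104 and 0.128 in the same order. The share of all protein-coding genes called lower was then 7.48% and 7.20%. Mcm2 also lost its call without silenced replicate 1 (adjusted p = 0.0567) and Pola2 without silenced replicate 3 (0.0521). Rpa2 lost it without control replicate 1 (0.0507), control replicate 3 (0.0520), silenced replicate 1 (0.0843) or silenced replicate 3 (0.0786). Pold4 lost it without control replicate 1 (0.113), silenced replicate 1 (0.111), silenced replicate 2 (0.0799) or silenced replicate 3 (0.103). None of these genes changed sign.

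The upper row of the slide held 3 control arrays and 1 silenced array, and the lower row 1 and 3. With slide row as a block, Pola2 (-1.65, adjusted p = 0.0487) was the 1 member called, and 5.86% of protein-coding genes were called lower. The differences of the other 7 called genes kept about their size, at -0.72 for Mcm2, -0.94 for Mcm5, -1.25 for Orc5, -0.94 for Cdc45, -1.46 for Dbf4, -0.69 for Rpa2 and 0.75 for Pold4, with larger standard errors and adjusted p from 0.0623 (Dbf4) to 0.130 (Rpa2 and Pold4). Silenced replicate 4, the array with the fewest spots above background, was the lowest array for 32 of the 46 members. The median deviation of the members from their own means was -0.44 on that array, beside -0.51 over protein-coding genes. On the other silenced arrays it was -0.01, -0.08 and 0.20, and on the control arrays -0.08, 0.04, 0.29 and 0.13, so the medians of the groups overlapped. Without silenced replicate 4, 8 members were called lower and 1 higher (2.17%), beside 13.4% and 16.01% of protein-coding genes, whose median was then 0.10.

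Probes of 1 gene did not always give the same difference. Of the 94 member probes 83 were tested, and 28 members had more than 1 tested probe. Of the 83 probes, 21 were called lower, or 25.3%, beside the 18.4% of all probes, and 1 higher. At least 1 probe was called lower in 18 members, or 39.1%, beside 27.0% of protein-coding genes. Among genes with more than 1 tested probe these were 14 of 28 members and 42.2% of 5846 protein-coding genes. For 11 of these 18 the brightest probe was not called. In 23 members the tested probes differed in call or in sign, and in 19 when only probes well above background on all 8 arrays were counted.

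Among the MCM genes, Mcm3 had 3 tested probes on 1 transcript. The probe at base 2075 of the transcript read 11.92, 12.33, 12.13 and 12.40 in control and 10.99, 11.09, 10.40 and 10.76 in silenced arrays. These groups did not overlap, with a difference of -1.38 (adjusted p = 0.00287). At base 2656 the difference was -0.77 (adjusted p = 0.0219), and at base 2762, the brightest probe, it was -0.05 (adjusted p = 0.896). A 4th Mcm3 probe, designed on another transcript record, gave -0.11. Mcm6 at base 1608 read 9.27, 9.68, 8.90 and 9.61 in control and 7.51, 8.15, 7.01 and 7.26 in silenced arrays. That probe fell by 1.88 on the log2 scale (adjusted p = 0.00239), while at base 2831 the difference was -0.05 (adjusted p = 0.916). The Mcm6 probes map to the - strand of chromosome 1, at 130237911 to 130237970 and at 130228178 to 130228237 in mm9. Mcm7 at base 507 was well above background on 3 control arrays and on no silenced array. The limma fit called it lower (adjusted p = 0.00316), using silenced signals not well above background. As a bound, which was not tested, it was at least 5.89-fold lower in silenced. That bound sets the mean of the control arrays against, on each silenced array, the higher of its dimmest signal that counted as well above background and the probe's own signal. At base 2228 Mcm7 differed by -0.58.

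**Figure D3:**
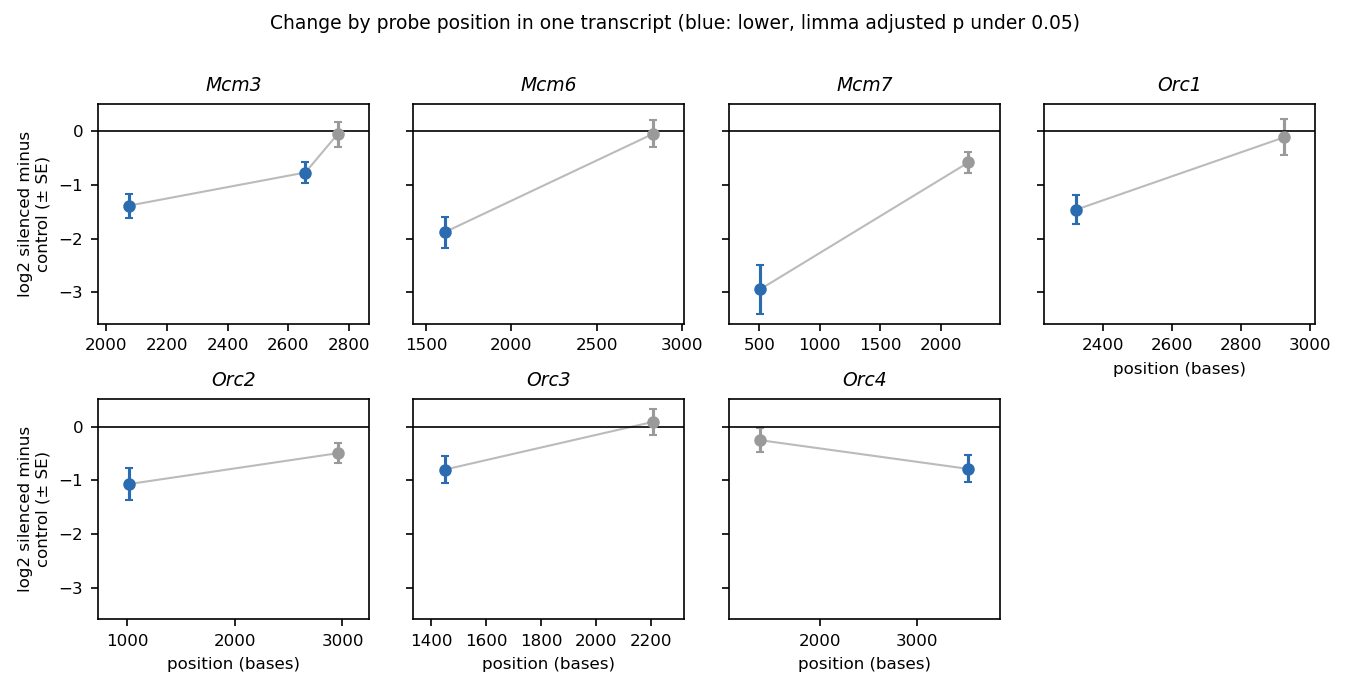
Log2 signal in silenced minus control cultures (y axis, point) with its standard error (bar) for the tested probes of Mcm3, Mcm6, Mcm7, Orc1, Orc2, Orc3 and Orc4, the MCM and origin recognition genes with a probe pair, against the position of the probe in 1 transcript of the gene in bases from its 5′ end (x axis). The most 5′ probe is called lower (blue) in the 6 genes other than Orc4, from -1.88 (Mcm6) to -0.80 (Orc3) where both groups were well above background, and the most 3′ probe is called in Orc4 alone. The 5′ probe of Mcm7 was not well above background in silenced cultures, so its point has only a bound, at least 5.89-fold lower.

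The origin recognition and loading genes had further examples. Orc1 fell by 1.46 at base 2319 (adjusted p = 0.00516) and differed by -0.11 at base 2925 and by -0.81 (adjusted p = 0.279) on another transcript record. Orc2 fell by 1.07 at base 1016 (adjusted p = 0.0295) and differed by -0.50 at base 2954. Orc3 fell by 0.80 at base 1448 (adjusted p = 0.0414) and differed by 0.09 at base 2207. Cdc6 fell by 1.02 at base 1924 (adjusted p = 0.0203) and differed by -0.42 at base 2152. Orc4 ran the other way, with -0.25 at base 1382 and a fall of 0.79 at base 3530 (adjusted p = 0.0474), and a probe on another transcript record of Orc4 fell by 1.09.

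At the fork, Gins4 fell by 0.65 at base 934 (adjusted p = 0.0416) and differed by 0.53 at base 1292. Pola1 fell by 0.87 at base 4531 (adjusted p = 0.0486) and differed by -0.30 at base 5203. Rfc3 fell by 0.70 at base 386 (adjusted p = 0.0460) and differed by -0.41 at base 960. Pola2 had a further called probe on another transcript record (-1.07, adjusted p = 0.0170) and one that was not called (-0.73). The second tested Dbf4 probe, also on another record, differed by 0.54 (adjusted p = 0.443), and the second Cdc45 probe by -0.98 (adjusted p = 0.0674). In 6 genes with probes well above background on all arrays no probe was called and the signs differed. Beside the values of the brightest probes above, the other probe gave -0.46 in Gins1, -0.45 in Gins2, -0.87 in Pold3 (-0.24 without silenced replicate 4), -0.47 in Pole3, 0.38 in Rfc5 and 0.04 in Rpa1. Second probes of Prim2, Pole and Pole4, and further ones of Orc4 and Pola2, were well above background on some arrays only, so no difference is given for them. With the mean of all tested probes of a gene in place of the brightest, the members' median was -0.33, beside -0.17 over protein-coding genes, and 8 were called lower and 0 higher, beside 14.5% and 4.29% of protein-coding genes. Mcm6 (-0.96, adjusted p = 0.0106) and Orc2 (-0.78, adjusted p = 0.0422) were among the 8, while Dbf4 (-0.46, adjusted p = 0.416) was not.

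To measure this within each gene, the most 5′ and the most 3′ tested probes on 1 transcript were subtracted on each array and the 5′ minus 3′ difference was compared between the groups with limma, over the 3783 protein-coding genes that had such a pair. Of 17 members with a pair, 60 to 2148 bases apart, the 5′ minus 3′ difference was lower in silenced arrays for 8, or 47.1%, beside 42.2% of all pairs. It was higher for 1 (Orc4), beside 4.07% of all pairs. The median shift was -0.61 in the members and -0.61 in all pairs, and it was negative for 15 of 17 members and 80.7% of all pairs. The replication genes thus stood close to protein-coding genes in general in this measure, which was not adjusted for probe distance. The median distance was 682 bases in the member pairs and 995 in all pairs. Over the 17 members the median change was -0.87 for the 5′ probes, of which 11 were called lower, and -0.12 for the 3′ probes, of which 2 were. Over all pairs these medians were -0.69 and -0.03, with 37.3% of the 5′ and 13.3% of the 3′ probes called lower.

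The 8 members were Mcm3, Mcm6, Mcm7, Orc1, Orc3, Cdc6, Gins2 and Gins4. The Mcm3 pair stood at -2.70, -2.32, -2.96 and -2.52 in control and at -3.95, -3.65, -4.67 and -3.54 in silenced arrays, a shift of -1.33 (SE 0.28, adjusted p = 0.00514). The Mcm6 pair stood at -4.87, -4.69, -5.95 and -4.69 in control and at -6.98, -6.07, -7.79 and -6.69 in silenced arrays, a shift of -1.83 (SE 0.41, adjusted p = 0.00693). Neither pair overlapped between groups. The Gins4 pair stood at 0.56, 0.28, 0.32 and 0.43 in control and at -0.71, -0.45, -1.25 and -0.71 in silenced arrays, a shift of -1.18 (SE 0.20, adjusted p = 0.00233). For Orc1 the shift was -1.35 (adjusted p = 0.00890), for Orc3 -0.89 (0.0311), for Gins2 -0.63 (0.0208) and for Cdc6 -0.61 (0.0184), where the probes are 228 bases apart. That of Mcm7 was -2.40 (adjusted p = 0.00539), with a 5′ probe that was not well above background in silenced arrays. This probe had no value on silenced replicate 4, so the size of the Mcm7 shift was not measured well. For Orc4 the shift was 0.54 (adjusted p = 0.0287).

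The remaining 8 pairs were not called. Cdc45, called lower by its 3′ probe, had a shift of 0.03 (adjusted p = 0.934), with differences of -0.98 at its 5′ and -1.01 at its 3′ probe. The others were Pold3 (-1.03, but -0.55 with adjusted p = 0.0486 without silenced replicate 4), Orc2 (-0.57), Pola1 (-0.57, but -0.86 with adjusted p = 0.0365 without control replicate 3), Pola2 (-0.34), Rfc3 (-0.29), Gmnn (-0.14) and Rfc4 (-0.11). On each array the median of the 16 pairs measured on all 8 arrays was -1.51, -1.16, -1.51 and -1.19 in control and -1.88, -1.75, -2.06 and -2.32 in silenced arrays, and the groups did not overlap. Over 3259 protein-coding genes it was -1.51, -1.42, -1.84 and -1.43 in control and -2.21, -2.07, -2.44 and -2.29 in silenced arrays. What sets this difference, and its part in the calls above, was not tested. The number of member pairs called lower was 5 without control replicate 2 and 5 without control replicate 4, and 6 to 9 without any 1 of the others. With each of the 8 arrays left out the pairs of Mcm3, Mcm6, Mcm7, Orc1 and Gins4 kept their calls, that of Cdc6 was called in 6 of the 8, Gins2 in 5, Orc4 in 4 and Orc3 in 2.

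**Figure D4:**
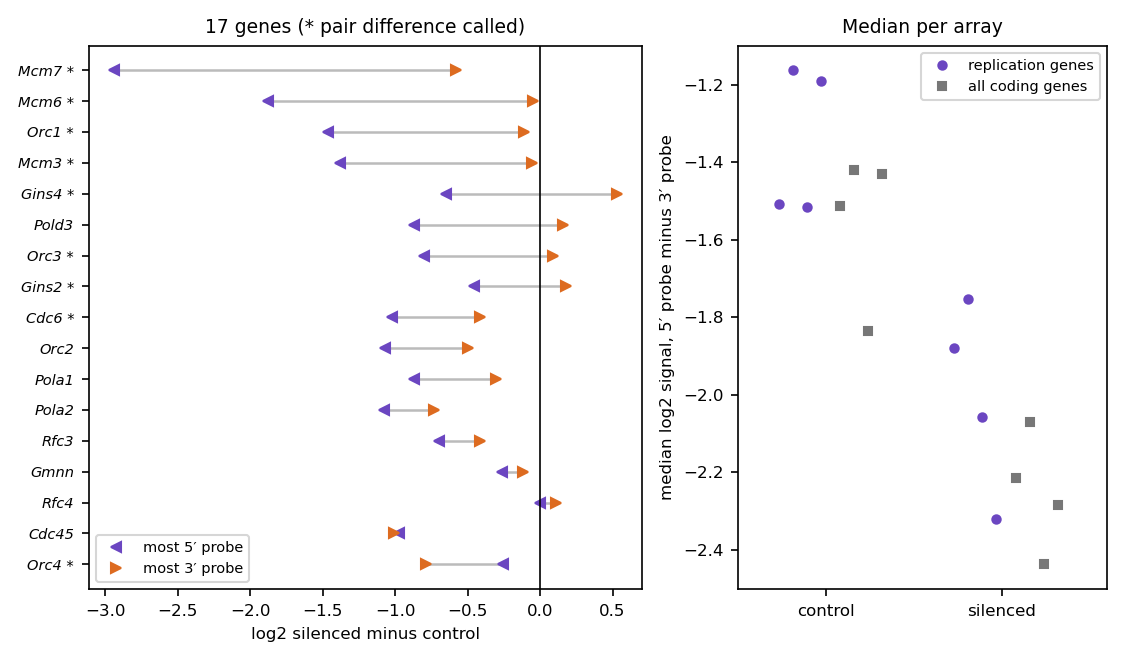
Left, log2 signal in silenced minus control cultures (x axis) of the most 5′ (purple) and most 3′ (orange) tested probe on 1 transcript of 17 replication genes, with a star where the pair difference was called. Right, the median over genes of 5′ minus 3′ log2 signal (y axis) on each array, from -1.51 to -1.16 in control and -2.32 to -1.75 in silenced arrays for the replication genes (circles), beside protein-coding genes (squares).

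By promoter, the 10 members with an E2F word had a median difference of -0.28 by their brightest probe, with 1 called lower, and the 28 with an entry and no such word had -0.16, with 6 called lower and 1 higher. All 10 ranged from -0.97 to 0.09.

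The regulators and partners of these genes were counted from a list of 71 others tested by their brightest probe. At the same threshold (limma, adjusted p under 0.05) 17 fell and 0 rose. That is 23.9% lower, beside 13.7% of protein-coding genes lower and 6.53% higher. Their median difference was -0.52, beside -0.06 over protein-coding genes. The list was chosen with earlier results of these data known, so these shares are a description only. Over the 71, 21 were called lower and 3 higher with cyclic loess, 13 and 4 without the mask on dim spots, and 18 and 4 in the value table, against the shares of protein-coding genes given above for these settings. Calls higher numbered 2 without silenced replicate 4 and 1 without control replicate 3, with E2f2 and Rnaseh2c the genes most often among them. Of the 17, 10 were called without control replicate 2 and 10 without control replicate 4, and 11 without the mask. Under these 3 scalings and with each of the 8 arrays left out, 11 settings in all, 9 of the 17 kept their call throughout (Clspn, Cul4b, E2f3, E2f4, Hus1, Rbl2, Rnaseh2a, Tk1 and Top2a). Chaf1a, E2f5, Mcm9 and Rrm1 kept theirs under 3 of the 11 and Top1 under 5. In E2F and G1/S control 5 of 17 fell, led by Rbl2 (-2.11), a pocket protein that binds E2F, and E2f3 (-1.62), with E2f4 (-1.20), Rbl1 (-0.99) and E2f5 (-0.80) next. E2f1, the activator best known for driving these genes, differed by -0.24 (adjusted p = 0.476). Of 15 regulators of licensing and firing 3 fell, namely Cul4b (-2.51), Mcm9 (-0.97) and Fbxo5 (-0.82). Cul4b, a scaffold of the ubiquitin ligase that degrades Cdt1, read 17.5% of control.

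Of 15 genes of fork protection and the S-phase checkpoint 3 fell, namely Clspn (-2.53), the adaptor that activates the kinase Chk1, whose probe was well above background on 4 control but 2 silenced arrays, Hus1 (-1.50), part of the checkpoint clamp, and Wdhd1 (-1.13), which tethers polymerase alpha to the fork helicase. Of 7 genes of chromatin assembly behind the fork, Chaf1a (-2.13) fell, but it kept that call under 3 of the 11 settings named above, and its difference was -1.36 without silenced replicate 4 (adjusted p = 0.00324), one of the 3. Of 8 genes of deoxynucleotide supply Tk1 (-1.31), thymidine kinase, and Rrm1 (-0.67), the large subunit of ribonucleotide reductase, fell. Of 9 genes of primer removal and topology Top2a (-1.11), Rnaseh2a (-1.02) and Top1 (-0.74) fell. Beside these, 4 of 6 proliferation markers fell (Top2a again, Ccna2, Mki67 and Ccnb1), where 13.7% of protein-coding genes did. Cdk1 (-0.40, limma adjusted p = 0.281) and Aurkb (-0.79, 0.0568) were not called, and their groups overlapped. The summed linear level of the 6 was 80424 to 86201 in control and 46160 to 57616 in silenced arrays. The part of a change in cycling cells in the members' values was not tested.

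The genes outside the list whose brightest probe most closely followed the mean profile of the 6 MCM genes over the 8 arrays were Ccdc50 (Pearson r = 0.998), Rasal2 (0.997), Dusp28 (0.994), Fmn2 (0.992) and Fam110b (0.992), of 11759 genes compared. The MCM profile itself was 13.90, 14.11, 14.30 and 14.12 in control and 13.72, 13.71, 13.69 and 13.43 in silenced arrays. These correlations share the arrays and the group difference and are given as a description.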

How the data were processed

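Per the labels, Cy3-labelled RNA of 8 C2C12 cultures (4 control, 4 silenced) was hybridised to 1-colour Agilent mouse arrays. The scanner files deposited by the authors hold spot intensity on a linear scale, and per the file headers Feature Extraction 12.0.0.7 subtracted background to give the processed signal (the labels name version 10.7.3.1). The deposited files also give flags of another kind, 0 or 1, for signal above background and outlier spots. The value table deposited by the authors holds intensity values for 47757 spots, ranked as in the scanner files. All of its columns were mapped to samples.

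Here, control spots, outlier spots and spots not positive and significant were masked, and log2 of the deposited processed intensities was quantile normalized between arrays and averaged per probe with R 4.3.3 and limma 3.58.1. The 28649 probes left, which needed values on 3 or more of the 4 arrays of both groups, were fitted with lmFit and eBayes on group alone, with Benjamini-Hochberg adjustment over all of them at 0.05. The fit was tested on simulated data. A gene was represented by its tested probe with the highest mean. The number of arrays limits the precision. Values per array are given for called members and for the brightest member of each role without a call, and the differences of the tested probes of a gene where they differed in call or sign, mainly of those well above background on all arrays. The members and lists were chosen with earlier results of these data known, and the comparison of 5′ and 3′ probes, with its alternatives, was chosen after seeing the data. Such pairs lie at least 60 bases apart on 1 transcript record, and in 99.3% of them the order by genome coordinate was the same. The files give probe coordinates in mm9, and the promoter sequences are RefSeq's for GRCm38.p6. The builds were not mixed, and the place of probes in exons was not analysed here. Alternatives were other normalizations and filters, the authors' value table, blocks for replicate number and slide row, other ways to choose the probe, the unequal-variance t-test that the study's supplement names for this experiment, and leaving out each array. The labels call the samples biological replicates. Replicate numbers were not taken to pair the samples. Drawings used Python 3.11.15 and matplotlib 3.10.9.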

Additional observations from a re-analysis of the deposited data

Results flagged for a closer look

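The 4 arrays of each group were compared for Pvt1, all tested probes and all probe pairs of the replication genes, the related genes named above and the medians per array. In 17 of 238 such groups 1 array stood apart from the other 3, and chance alone flags about 1 in 20.

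Silenced replicate 4, the array with the fewest spots above background, was the low one in 9 of them. Protein-coding genes in general also read low on it, with a median deviation of -0.51 from their own means. The readings below were not adjusted for that shift, so they are not particular to these genes. By the brightest probe it read 14.52 for Pcna (others 14.90 to 14.96), 12.74 for Pold2 (12.97 to 13.01) and 12.60 for Rfc2 (13.09 to 13.14). By another probe it read 9.16 for Gins2 (9.82 to 9.95), 7.75 for Pold3 (10.14 to 10.41) and 9.55 for Rfc3 (10.13 to 10.19). Among related genes it read 9.57 for Rbl1 (10.49 to 10.54) and 8.75 for Chaf1a (11.69 to 12.13). The Pold3 probe pair stood at -3.55 there (-1.84 to -1.52).

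Control replicate 3 stood apart in 5. The 5′ minus 3′ difference on it was -5.95 for the Mcm6 pair (others -4.87 to -4.69), -3.36 for the Cdc45 pair (-2.37 to -2.26) and -1.43 for the Pola1 pair (-0.40 to -0.23). It read 11.55 for a probe of Rfc4 on another transcript record (10.93 to 11.02) and 10.94 for Wdhd1 (9.90 to 10.08), both above the other control arrays. Over probes with values on all 8 arrays, the correlation of control replicate 3 with its group averaged 0.960, and that of the other control arrays 0.982 to 0.983.

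Control replicate 1 was the low one for the brightest probes of Orc2, at 11.09 (11.42 to 11.44), and Lig1, at 12.62 (13.06 to 13.11), and for a second Gins1 probe, at 9.71 (10.09 to 10.13).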

How the results depend on the processing

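Over 20 alternatives for each of the 46 members, 829 of 920 values stayed on the same side of the threshold, 54 lost a call, 22 gained a call lower and 15 a call higher, and no called difference changed sign. Changes of sign in differences called under neither setting were not counted. Mcm5 kept its call under 19 of 20 alternatives (adjusted p = 0.0648 with slide row as a block), Dbf4 under 15, Cdc45 under 14, Orc5 and Pola2 under 13, Mcm2 under 12, and Rpa2 and Pold4 under 10. Members called lower numbered 11 with normexp (15.5% of protein-coding genes), 4 without the mask (7.84%) and 1 with slide row as a block (5.86%). Members called higher numbered 7 in the authors' value table (15.6% of protein-coding genes), 4 with cyclic loess (24.5%) and 7 without the mask (15.5%). They numbered 0 with the mean of a gene's probes (4.29%), the unequal-variance t-test (2.86%), the replicate block (4.78%) or slide row as a block (2.48%). That t-test, which the study's supplement names for this experiment, called 5 lower after Benjamini-Hochberg adjustment (8.13% of protein-coding genes). Of the 7 genes called lower in the main fit, only Mcm5 (t-test adjusted p = 0.0287) and Rpa2 (0.0481) were among these 5. At its unadjusted threshold the t-test called 13 lower and 1 higher, beside 19.4% and 11.3% of protein-coding genes. The members' median moved to -0.33 with the mean of a gene's probes. Leaving out each array in turn gave 1 to 8 members lower, 0 to 1 higher, a median of -0.31 to -0.02 and 5 to 9 probe pairs lower.

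With the replicate number as a replicate block, 5 members were called lower and 0 higher, beside 9.32% and 4.78% of protein-coding genes, and 9 probe pairs lower. Mcm2 (limma adjusted p = 0.0723), Rpa2 (0.0897) and Pold4 (0.0849) lost their calls there. Deviations of same-numbered arrays correlated by -0.04, 0.19, 0.22 and 0.06. For control replicates 2 and 3 the silenced array of the same number was the best match, and for replicates 1 and 4 it was not. The numbers were not taken to pair the samples, but these values cannot exclude a pairing. The Pvt1 difference ranged from -3.14 to -2.19 over 19 alternatives, all past the threshold, and the authors' value table gave no value for its tested probes. The number of probe pairs called lower stayed within 1.5 times of 8 under the other alternatives, pairs by genome coordinate included. The 4 arrays per group limit what can be called.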
